A study of Mus musculus with 54 samples.

Results

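The 10 genes Acsf2, Apod, Btg3, Hemk1, Spns2, Tgm2, Chmp4c, Ier3, Mapk3 and Adamtsl4 were followed through all 54 mouse libraries of the series. They were chosen by their fold change in these data, each being higher after Cmpd60 in kidney, brain and heart of aged mice, and they are 10 of the 54232 genes in the count files. The values that chose them are the fold changes and p-values of those 3 comparisons, so in the aged tissues their levels are a description, and the p-values and calls quoted there belong to the comparisons that chose the genes and support nothing further. The brains of APPSWE mice and their littermates were not used for the choice, and there the fold changes were tested.

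Cmpd60 is an inhibitor of the histone deacetylases HDAC1 and HDAC2, and the aged mice were male BL6 animals of about 20 months given daily intraperitoneal injections of Cmpd60 at 22.5 mg/kg or of its vehicle over 14 days. Kidney RNA came from 6 Cmpd60 and 5 vehicle libraries, brain RNA from 6 and 6, and heart RNA from 5 and 6. The second cohort consisted of male mice aged 6 to 7 months, treated with the same dose and time: the APPSWE-1349 line on a BL6 background, heterozygous for a transgene of the human amyloid precursor protein with the Swedish mutation, with 4 Cmpd60 and 6 vehicle libraries in the labels, and littermates without the transgene, with 5 and 5. The age of this cohort comes from the study's methods, since the labels give about 20 months for all mice. One library of the APPSWE vehicle group, number s139, is headed as Cmpd60-treated in a table of the study, so it was left out of the tests and its values are given separately, which leaves 5 APPSWE vehicle libraries. The kidney labels hold a treatment field that is the opposite of their titles and source names; the titles were followed, and under that field every kidney fold change below would have the opposite sign.

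Histone deacetylases remove acetyl groups from the lysines of histone tails, and their inhibition leaves chromatin more acetylated, which is generally associated with easier transcription, although many genes also fall. The 10 genes differ in what they do. Acsf2 is a mitochondrial acyl-CoA synthetase that activates fatty acids, and Apod is a secreted lipid carrier of the lipocalin family. Spns2 exports the signalling lipid sphingosine 1-phosphate from cells. Tgm2 is a transglutaminase that cross-links proteins, and Adamtsl4 is a secreted ADAMTS-like protein found with fibrillin microfibrils. Ier3 is an immediate early gene with roles in cell survival, Mapk3 encodes the kinase ERK1 and Btg3 belongs to the BTG/TOB family of antiproliferative proteins. Chmp4c is a subunit of the membrane-cutting ESCRT-III complex, and Hemk1 is a methyltransferase of release factors.

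Gene counts per library summed to between 23584609 and 57430113 (median 28114298). Genes with any count numbered from 17809 to 28017 in the aged libraries and from 15044 to 24821 in the younger brains, of which 5 libraries (s140, s141, s146, s152 and s155) had fewer than 17000. Levels are given in CPM, counts scaled to a common library total with TMM normalisation. A count of 0 was taken to allow at most 3 counts, which is 0.127 CPM in the smallest library before the TMM factor. The summed level of 7 neuron and glia markers was between 5411 and 7119 CPM in the aged brains, that of 6 cardiomyocyte markers between 45360 and 58510 CPM in the hearts, and that of 7 nephron markers between 7391 and 15860 CPM in the kidneys, and each was at most 320 CPM in the other aged tissues. The mouse App gene had 2087 to 2385 CPM in the APPSWE vehicle brains and 1949.9 to 2268 CPM in those of littermates, and since the transgene is human, this does not check the genotype. No pair of libraries held identical counts. In whole-tissue RNA, fewer cells of a type and less RNA per cell cannot be told apart, and the 3 aged tissues come from the same cohort of mice, so they are not 3 independent repeats.

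The study looked for motifs among genes shared by the tissues, those of the hypoxia factor Hif1a among them, and the promoters of the 10 genes are shown here for that reason. The search here is a plain match of letters and differs from the study's motif analysis in method, window and genes, so it is no check of it. RefSeq promoter sequences of build GRCm38.p6 were matched for 7 of the 10 genes, in 8 entries because Btg3 has 2, and were not matched for Tgm2, Chmp4c and Mapk3. The 250 bases before the start site were searched on both strands for ACGTG and GCGTG, the core of the element that Hif1a recognises. In the sequences below, written 5′ to 3′ on the strand of the gene, capitals mark these cores or their reverse complements. Acsf2, Ier3 and Adamtsl4 are shown because they hold a core, and Apod because it holds none. The positions are chr11:94601787-94602036 on the minus strand for Acsf2, chr17:35821463-35821712 on the plus strand for Ier3, chr3:95687918-95688167 on the minus strand for Adamtsl4 and chr16:31314809-31315058 on the minus strand for Apod.
Acsf2: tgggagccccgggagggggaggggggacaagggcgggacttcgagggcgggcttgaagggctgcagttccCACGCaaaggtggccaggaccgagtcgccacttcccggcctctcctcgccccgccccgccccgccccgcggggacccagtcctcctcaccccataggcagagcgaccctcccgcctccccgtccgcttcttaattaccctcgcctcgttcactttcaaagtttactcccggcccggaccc
Ier3: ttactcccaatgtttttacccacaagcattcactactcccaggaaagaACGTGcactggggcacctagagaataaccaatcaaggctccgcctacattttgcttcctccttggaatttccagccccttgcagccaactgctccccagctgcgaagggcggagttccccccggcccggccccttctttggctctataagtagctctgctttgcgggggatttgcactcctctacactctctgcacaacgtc
Adamtsl4: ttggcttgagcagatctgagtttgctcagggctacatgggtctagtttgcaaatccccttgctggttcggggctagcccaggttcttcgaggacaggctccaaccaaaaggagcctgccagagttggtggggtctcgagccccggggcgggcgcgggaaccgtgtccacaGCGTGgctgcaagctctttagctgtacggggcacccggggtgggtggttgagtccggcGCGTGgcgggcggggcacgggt
Apod: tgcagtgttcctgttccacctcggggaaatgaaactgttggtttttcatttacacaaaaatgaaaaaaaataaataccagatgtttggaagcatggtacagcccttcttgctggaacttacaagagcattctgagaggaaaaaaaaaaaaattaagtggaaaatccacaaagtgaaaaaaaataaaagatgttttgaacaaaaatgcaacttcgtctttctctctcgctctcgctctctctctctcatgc

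At least 1 core lay in 6 of the 8 member entries, compared with 38.6% of all 32851 promoters of the same length. Both entries of Btg3 are among the 6, so this gene is counted more than once. The cores of Adamtsl4 began 80 and 22 bases before the start site, that of Acsf2 180 bases before it and that of Ier3 202 bases before it. GCGTG alone was found in 4 of the 8 entries and in 28.2% of all promoters, and ACGTG in 2 of 8 and in 16.6%. The share of G and C was 70.0% in Acsf2, 64.4% in Adamtsl4, 54.4% in Ier3 and 36.4% in Apod with a median of 52.4% over all promoters, and its part in these counts was not tested. The GC box GGGCGG was found in 4 of the 8 entries (32.7% of all promoters) and CCAAT in 4 (33.8%), both entries of Btg3 among the latter. The E-box CACGTG, the letters TATAAA, the cAMP element TGACGTCA, the AP-1 site TGACTCA and the antioxidant element TGACNNNGC were in none of the 8, and were in 6.02%, 12.4%, 1.55%, 4.46% and 10.2% of all promoters. A match of letters is a description of the sequence and does not show that a factor binds there.

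In the aged mice, all 10 genes had a fitted log2 fold change above 0 in each of the 3 tissues, as their choice requires. The median over the 10 was 0.50 in kidney, 0.29 in brain and 0.31 in heart, beside medians of all genes tested that were within 0.01 of 0. The ratio of mean CPM between Cmpd60 and vehicle ran from 1.16 for Mapk3 to 1.86 for Acsf2 in kidney, from 1.14 for Spns2 to 1.75 for Chmp4c in brain, and from 1.13 for Mapk3 to 1.55 for Apod in heart. Mean levels were therefore less than doubled in all 30 comparisons.

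The number of genes whose Cmpd60 libraries were all above the highest vehicle library was 4 of 10 in kidney, 3 of 10 in brain and 1 of 10 in heart. Among all genes tested, 1.1% in kidney, 0.495% in brain and 1.45% in heart had such a gap, and since the same values chose the 10, nothing is read from the difference. An unadjusted p-value below 0.05 in every tissue by edgeR's quasi-likelihood test was fixed by the choice, and 5.71% of all genes were higher at this level in kidney, 7.32% in brain and 7.28% in heart. After Benjamini-Hochberg adjustment over all genes, 1 of the 10 stayed below 0.05 in kidney (Acsf2; 0.188% of all genes), 0 in brain (0.0123%) and 2 in heart (Chmp4c and Ier3; 0.756%). DESeq2 called 4, 5 and 5 of the 10, where it called 429, 429 and 746 of all genes in either direction. Limma-voom called 1, 0 and 2 of the 10, and 70, 2 and 245 of all genes. In the 3 tissues, 20698, 24438 and 19452 genes passed the count filter. These calls, too, come from the comparisons that chose the genes.

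**Figure D1:**
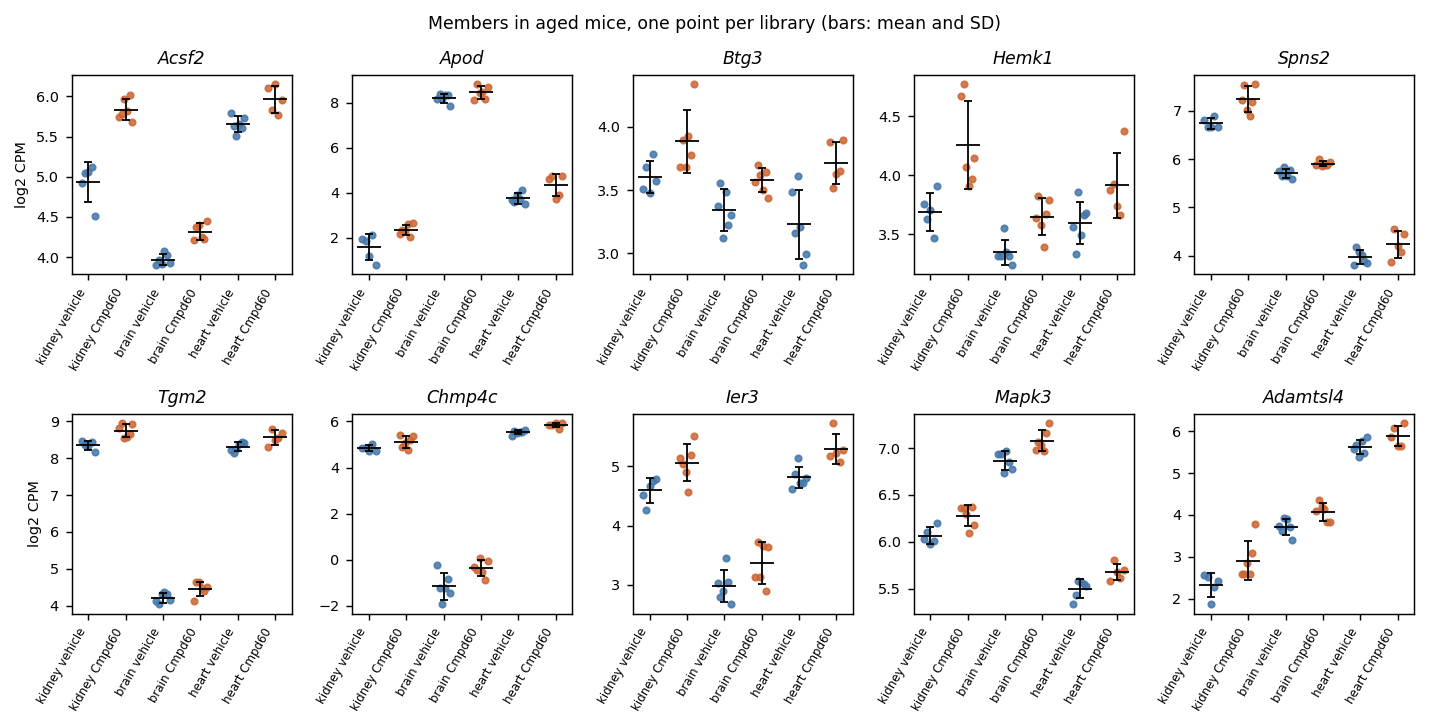
Log2 CPM (y axis) of each of the 10 genes in the aged mice, with 1 point per library, vehicle in blue and Cmpd60 in orange, and the mean and SD of each group in black. Values were scaled within each tissue, and the orange mean lies above the blue one in each of the 30 pairs, although the groups overlap in 22 of them.

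Among the genes with a fold change above 0 in all 3 tissues, Acsf2 ranked first by its largest p-value, 0.00108 (edgeR). These p-values are among the values that chose it. In kidney, the vehicle libraries stood at 30.2, 33, 33.4, 34.6 and 22.7 CPM and the 6 Cmpd60 libraries at 51.1 to 64.8 CPM (median 55.7). In brain, the values were 15 to 16.8 CPM (median 15.3) with vehicle and 18.6 to 21.8 CPM (median 19.8) with Cmpd60. The 2 groups did not overlap in either tissue, and the gap was wide in kidney, where the lowest Cmpd60 library lay well above the highest vehicle library. In heart, 68.9, 56.7, 71.3, 54.3 and 61.7 CPM were measured with Cmpd60 and 45.5 to 55.2 CPM (median 49.8) with vehicle, and 4 of the 5 Cmpd60 libraries were above every vehicle library. The log2 fold change was 0.90 (SE 0.11) in kidney, 0.35 (SE 0.06) in brain and 0.32 (SE 0.08) in heart.

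Apod, the lipid carrier, had very unlike levels in the 3 tissues. The kidney vehicle libraries had 3.83, 3.57, 2.19, 4.27 and 1.64 CPM and the kidney Cmpd60 libraries 4.02 to 6.14 CPM (median 4.88). In brain, vehicle libraries ranged over 229.9 to 334 CPM (median 308) and Cmpd60 libraries over 278 to 465 CPM (median 354). In heart, Cmpd60 gave 24.1, 26.5, 13, 15 and 26.4 CPM beside 11.1 to 17.5 CPM (median 12.9) with vehicle. The groups overlapped in all 3 tissues: in heart, the Cmpd60 libraries fell into 3 high ones, above every vehicle library, and 2 within the vehicle range. The log2 fold change was 0.71 (SE 0.24) in kidney, 0.27 (SE 0.11) in brain and 0.63 (SE 0.18) in heart.

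Spns2, the exporter of sphingosine 1-phosphate, had 112, 101, 102, 119.7 and 102 CPM in the kidney vehicle libraries and 119 to 189.6 CPM (median 148) with Cmpd60. In brain, the vehicle libraries held 48 to 57 CPM (median 52.2) and the Cmpd60 libraries 58.1 to 64 CPM (median 58.9). The brain groups did not overlap, although their means differed by only 1.14-fold, and the spread within each group was small. In heart, 14.6, 23.5, 18.4, 16.8 and 21.8 CPM with Cmpd60 stood beside 13.9 to 17.9 CPM (median 15.5) with vehicle, with 3 of 5 Cmpd60 libraries above the vehicle range. The log2 fold changes were 0.51 (SE 0.12), 0.19 (SE 0.05) and 0.28 (SE 0.12) in kidney, brain and heart.

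Tgm2, the transglutaminase, was at 355, 327, 325, 349 and 285 CPM in the kidney vehicle libraries and at 374 to 497 CPM (median 426) with Cmpd60, without overlap. In brain, it was at 16.3 to 20.8 CPM (median 18.7) with vehicle and 17.5 to 24.8 CPM (median 22.4) with Cmpd60, where 5 of 6 Cmpd60 libraries were above every vehicle library. In heart, the Cmpd60 libraries had 313, 446, 359, 372 and 413 CPM and the vehicle libraries 284 to 345 CPM (median 319). The heart groups overlapped through the lowest Cmpd60 library, number 68. Fold changes of Tgm2 were alike in size in brain and heart, at 0.25 (SE 0.08) and 0.26 (SE 0.08) on the log2 scale, and 0.40 (SE 0.10) in kidney.

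Spns2 and Tgm2 are both known from endothelial cells, among others, so endothelial markers are given beside them. The summed level of 7 endothelial markers was 130.1 to 143 CPM with vehicle and 140.3 to 245 CPM with Cmpd60 in the aged brain, and 1070 to 1187 and 1130 to 1513 CPM in the heart. All 7 had a fold change above 0 in both tissues (51.8% and 49.6% of all genes in brain and heart). At an unadjusted p-value below 0.05, 3 were higher in brain (7.32% of all genes) and 4 in heart (7.28%), and 0 were after adjustment. In kidney, the sum was 397 to 491 CPM with vehicle and 328 to 516 CPM with Cmpd60, and 4 of 7 were above 0. The part of these markers in the values of Spns2 and Tgm2 was not tested.

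Adamtsl4, the microfibril protein, stood at 5.85, 5.65, 3.58, 4.82 and 5.28 CPM in the kidney vehicle libraries and at 5.92 to 13.6 CPM (median 6.56) with Cmpd60. The kidney groups did not overlap, yet the margin was narrow, and library 55 alone made up the upper end. In brain, the values were 10.6 to 15.1 CPM (median 13.2) with vehicle and 14.2 to 20.5 CPM (median 17.4) with Cmpd60, and in heart 41.7 to 57.8 CPM (median 49.1) with vehicle and 58.4, 67, 50.3, 50.0 and 73.2 CPM with Cmpd60. The log2 fold change was 0.64 (SE 0.23), 0.36 (SE 0.10) and 0.28 (SE 0.11) in kidney, brain and heart, and 0.41 in kidney without library 55.

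Ier3, the immediate early gene, had fold changes of much the same size in the 3 tissues, 0.48 (SE 0.14) in kidney, 0.40 (SE 0.15) in brain and 0.49 (SE 0.12) in heart on the log2 scale. Kidney vehicle libraries had 22.8, 19.2, 25.4, 26.8 and 27.6 CPM and kidney Cmpd60 libraries 23.8 to 45.7 CPM (median 34.2). Brain levels were 6.30 to 10.9 CPM (median 7.72) with vehicle and 7.38 to 13.1 CPM (median 10.6) with Cmpd60, so that 3 of 6 Cmpd60 libraries were above the vehicle range. In heart, Cmpd60 libraries had 36.1, 53.1, 37.1, 33.6 and 38.7 CPM against 24.6 to 35.4 CPM (median 27.1) with vehicle.

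Mapk3, which encodes ERK1, had the smallest fold changes in kidney and heart, 0.22 (SE 0.08) and 0.18 (SE 0.07) on the log2 scale, and 0.22 (SE 0.06) in brain. The brain libraries did not overlap, with 106 to 126 CPM (median 119) with vehicle and 126 to 154.3 CPM (median 133) with Cmpd60. The highest vehicle and the lowest Cmpd60 brain both rounded to 126 CPM. In kidney, vehicle libraries had 65.2, 68.8, 62.7, 64.4 and 73.4 CPM and Cmpd60 libraries 68.3 to 82.5 CPM (median 80.3). In heart, 47.7, 55.9, 51.2, 48.8 and 51.9 CPM with Cmpd60 stood beside 40.1 to 47.9 CPM (median 46.3) with vehicle. One or more Cmpd60 libraries lay within the vehicle range in both of these tissues.

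Btg3, the antiproliferative gene, was at 11.3, 12.8, 11, 13.7 and 11.8 CPM in kidney vehicle libraries and 12.8 to 20.2 CPM (median 14.2) with Cmpd60. Only 3 of the 6 Cmpd60 kidneys were above every vehicle kidney, and Btg3 had the p-value closest to the threshold of the 10, 0.0356 in kidney. In brain, values were 8.61 to 11.7 CPM (median 10.1) with vehicle and 10.8 to 12.9 CPM (median 12) with Cmpd60. In heart, Cmpd60 libraries had 14.7, 11.3, 12.3, 12.5 and 14.8 CPM and vehicle libraries 7.42 to 12.1 CPM (median 9.01). The log2 fold change was 0.30 (SE 0.13), 0.23 (SE 0.08) and 0.48 (SE 0.13) in kidney, brain and heart, and 0.19 in kidney without library 55.

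Hemk1, the release factor methyltransferase, had 13.4, 12.3, 13, 11 and 14.9 CPM in kidney vehicle libraries and 14.9 to 27.3 CPM (median 17.2) with Cmpd60. The groups did not overlap, but the highest vehicle and the lowest Cmpd60 kidney both rounded to 14.9 CPM. Libraries 50 and 51 were well above the other 4 Cmpd60 kidneys. In brain, it had 9.36 to 11.7 CPM (median 9.90) with vehicle and 10.4 to 14.1 CPM (median 12.5) with Cmpd60, and in heart 9.99 to 14.4 CPM (median 12.1) with vehicle and 14.6, 15.2, 13.3, 12.6 and 20.6 CPM with Cmpd60. The log2 fold change was 0.60 (SE 0.16), 0.30 (SE 0.08) and 0.34 (SE 0.13) in kidney, brain and heart, and 0.20 in heart without Cmpd60 library 72.

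Chmp4c, the ESCRT-III subunit, was well expressed in kidney and heart and close to absent in brain. Kidney vehicle libraries had 29, 28.8, 25.9, 32.7 and 26.4 CPM and kidney Cmpd60 libraries 27.2 to 42.1 CPM (median 35.2). The hearts were the only tissue in which its groups did not overlap, with 41.5 to 49.2 CPM (median 46.6) with vehicle and 56.5, 57.9, 60.3, 51.4 and 60.2 CPM with Cmpd60. In brain, the gene had between 6 and 21 counts per vehicle library and between 17 and 53 per Cmpd60 library, or 0.203 to 0.79 CPM (median 0.368) and 0.488 to 0.99 CPM (median 0.711). Its log2 fold change in brain, 0.83, carried an SE of 0.29, compared with 0.30 (SE 0.12) in kidney and 0.31 (SE 0.07) in heart.

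Between libraries, the mean over the 10 genes of the difference from the vehicle mean was 0.30 to 0.74 on the log2 scale in the 6 Cmpd60 kidneys and -0.11 to 0.12 in the vehicle kidneys. It was 0.18 to 0.49 in the Cmpd60 brains with -0.18 to 0.12 in the vehicle brains, and 0.17 to 0.52 in the Cmpd60 hearts with -0.05 to 0.09 in the vehicle hearts. Kidney library 55 was the highest Cmpd60 library for 5 of the 10 genes, brain library 34 for 7 and heart library 69 for 5. In the kidneys, library 55 also had the fewest detected genes, 18512, and the median fold change of the 10 genes in kidney was 0.40 without it. Nephron markers summed to 12790 to 15810 CPM in the vehicle kidneys and 7391 to 15860 CPM in the Cmpd60 kidneys. The part of detection and of these markers in the kidney values was not tested.

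Other genes met the same condition. Besides the 10, 41 genes were higher with an unadjusted p-value below 0.05 in all 3 tissues, out of 17536 tested in each. Ranked by their largest p-value of the 3 tissues, Btg3 was the lowest of the 10, at rank 32 of 51 with 0.0356, while the last gene inside was Atf4 at 0.0485 and the first outside was Tcirg1 at 0.0504. With the thresholds of the study, which are an adjusted p-value below 0.05 in heart and unadjusted ones in kidney and brain, edgeR listed 12 genes, of which 2 were members (Ier3 and Chmp4c), with 10 others. At the same thresholds, DESeq2 listed 20 genes with 5 members and limma-voom 10 genes with 2 members. The 5 others with the largest fold changes and at least 1 CPM in each tissue were Lcn2, a siderophore-binding lipocalin, Lrg1 and Lgals3bp, both secreted glycoproteins, Ly6a, a surface protein, and BC018242, of unstated role. Lcn2 had log2 fold changes of 2.21, 0.74 and 2.31 in kidney, brain and heart, and BC018242 0.77, 0.22 and 0.78. Lrg1 was at 2.11, 0.59 and 0.89, Lgals3bp at 0.53, 0.48 and 0.70, and Ly6a at 0.41, 0.47 and 0.50. In the younger brains, 7 of these 10 others were above 0 in APPSWE and 4 in littermates.

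The levels of the 10 genes differed greatly between the tissues of vehicle mice, a comparison that the choice did not use. Here all 34 aged libraries were scaled together, and levels between genes are given as RPKM, CPM divided by exon length in kilobases. In brain, Apod led with 97.4 ± 12.5 RPKM (SD, n = 6), followed by Mapk3 with 45.4 ± 3.29, and Chmp4c was last with 0.192 ± 0.0934. In kidney, Tgm2 led with 67.4 ± 5.68 RPKM (SD, n = 5), followed by Mapk3 with 29.2 ± 1.83 and Spns2 with 24.6 ± 1.87. Adamtsl4 and Apod were lowest in kidney, at 1.13 ± 0.203 and 1.14 ± 0.412, and did not differ beyond their spread. In heart, Tgm2 led with 86.8 ± 7.30 RPKM (SD, n = 6), and the next ones, Ier3 with 31.4 ± 4.60 and Chmp4c with 31.4 ± 2.47, did not differ beyond their spread. Hemk1 and Spns2 were lowest in heart, at 4.97 ± 0.624 and 4.78 ± 0.547, again within their spread.

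**Figure D2:**
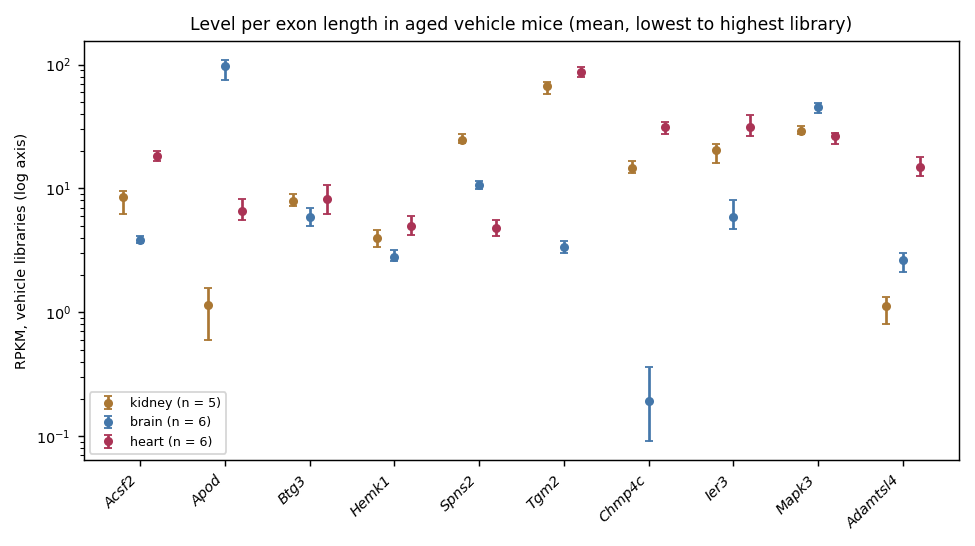
Level per exon length (RPKM, log axis) of the 10 genes in the aged vehicle libraries, with points for the mean and bars from the lowest to the highest library. Apod ranged from 1.14 in kidney to 97.4 in brain and Chmp4c from 0.192 in brain to 31.4 in heart, while Btg3 ran from 5.92 in brain to 8.25 in heart.

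Tested between vehicle tissues with edgeR, all 10 genes differed between brain and kidney at an adjusted p-value below 0.05, 3 higher and 7 lower in brain, where 39.8% of all genes were higher and 32.8% lower. All 10 also differed between brain and heart, 3 higher and 7 lower (43.2% and 28.9% of all genes), and 8 differed between kidney and heart, 1 higher and 7 lower in kidney (31.1% and 25.6%). The counts of called members are thus read against a background in which most genes differ between tissues. Apod was higher in brain than in kidney by 6.43 (SE 0.23, adjusted p = 5.959e-24) and than in heart by 3.88 (SE 0.18, adjusted p = 2.412e-20) on the log2 scale. Chmp4c was lower in brain than in heart (log2 fold change -7.36, SE 0.18, adjusted p = 3.855e-29), and so was Tgm2 (log2 fold change -4.68, SE 0.11, adjusted p = 7.857e-30). Spns2 was the member that was higher in kidney than in heart, by 2.37 (SE 0.11, adjusted p = 1.491e-20), and Adamtsl4 was lower there (log2 fold change -3.70, SE 0.18, adjusted p = 1.331e-19). Btg3 and Mapk3 were not called between kidney and heart (log2 fold changes -0.05 with SE 0.12 and 0.15 with SE 0.07). Hemk1 was called there at an adjusted p of 0.0489 (log2 fold change -0.32, SE 0.14) and was not called by limma-voom. The tissues share mice, which the labels do not pair, so these fits treat the libraries as separate mice.

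The question of whether the 10 genes also rise with Cmpd60 in the younger brains was asked of libraries that played no part in their choice. None of the 10 was called in either genotype: 0 of 10 passed an adjusted p-value below 0.05 in the APPSWE brains and 0 of 10 in the littermates (0% of all genes in both, edgeR). At an unadjusted p-value below 0.05, 0 members were higher in APPSWE brains (7.06% of all genes) and 1 was lower (2.41%), and 0 were higher (2.44%) or lower (1.23%) in littermates. DESeq2 and limma-voom also called 0 members in both genotypes. Over all genes, DESeq2 called 22 in APPSWE and 4 in littermates, and limma-voom 0 in both. At an unadjusted p-value below 0.05 in APPSWE, limma-voom had 2 members higher and 1 lower, and DESeq2 had 0 and 1. In both directions together, 2619 of 23194 genes passed this level with limma-voom and 1540 with DESeq2.

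By direction alone, 8 of the 10 were above 0 in the APPSWE brains and 6 of the 10 in the littermates, beside 53.8% and 52.8% of all genes. With limma-voom, 7 and 4 of the 10 were above 0, so the majority in littermates turned. The median log2 fold change of the members was 0.27 in APPSWE and 0.03 in littermates, against 0.03 and 0.02 over all genes. Over the alternatives other than leaving out 1 library, it ran from 0.13 to 0.35 in APPSWE and from -0.090 to 0.092 in littermates. For the mean of both genotypes, 7 of 10 were above 0 (55.2% of all genes), with a median of 0.054 (-0.028 to 0.14 over the same alternatives), and 0 of 10 were called (0% of all genes). At an unadjusted p-value below 0.05, 0 were higher (6.48%) and 1, Apod, was lower (2.77%). The other 41 genes that were higher in all 3 aged tissues gave 26 above 0 in APPSWE and 20 in littermates. No Cmpd60 group of the younger brains lay wholly above its vehicle group for any of the 10 genes, which 1.49% of all genes did in APPSWE and 0.285% in littermates.

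**Figure D3:**
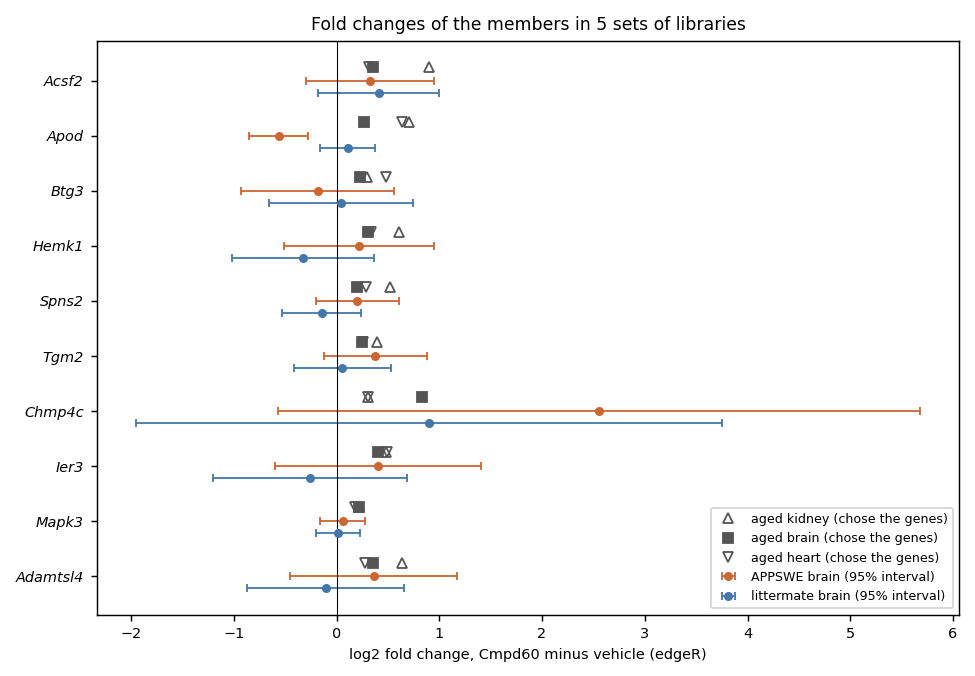
Log2 fold change of Cmpd60 against vehicle (x axis) for the 10 genes, in grey for the aged tissues, which chose the genes and carry no error bar, and in colour for the younger brains with 95% intervals. The intervals of 9 members cover 0 in APPSWE and those of all 10 do in littermates, and Apod lies wholly below 0 in APPSWE.

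The younger brains gave wide intervals. The median width of the members' 95% intervals on the log2 scale was 1.35 in APPSWE and 1.28 in littermates, compared with 0.35 in the aged brain. For 8 of the 10 genes, the 95% interval of the mean of both genotypes contained the fold change seen in the aged brain. For these 8, the younger libraries do not set such a change apart from no change. The exceptions were Apod and Mapk3. The aged brain values are among those that chose the genes, which tends to make them too large, so nothing further is read from where they lie. For Mapk3, the interval ran from -0.12 to 0.19, and the aged brain value was 0.22. The cohorts differ in age and line, which cannot be told apart, and the difference between cohorts was not tested.

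Apod departed from the direction of the aged tissues in the APPSWE brains. The vehicle libraries had 277, 256, 200.4, 248 and 245 CPM and the Cmpd60 libraries 166, 132, 189.8 and 175. All 4 Cmpd60 values lay below the lowest vehicle value, and library s139, of disputed group, had 224 CPM. A complete gap in this direction was found for 0.815% of all genes. The log2 fold change was -0.57 (SE 0.14, unadjusted p = 0.000448), and after adjustment over all genes it did not pass (adjusted p = 0.444, edgeR), so Apod is not called. In littermates, the vehicle libraries had 213, 168, 202, 189 and 157 CPM and the Cmpd60 libraries 230.2, 146.4, 155.2, 218 and 248, with both the lowest and the highest value among the Cmpd60 libraries and a log2 fold change of 0.10 (SE 0.13, adjusted p = 0.999).

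The difference between the genotypes in the response of Apod was -0.67 on the log2 scale (SE 0.19, unadjusted p = 0.00176) and did not pass adjustment (adjusted p = 0.944, edgeR), with 0 of 10 members called in this comparison (0% of all genes) and 0 higher and 1 lower at an unadjusted p-value below 0.05 (3.52% and 1.57% of all genes). Between the vehicle groups, Apod was at a log2 difference of 0.40 from littermates in APPSWE mice (SE 0.13, unadjusted p = 0.00523, adjusted p = 0.509), with 0 of 10 members called (0.00862% of all genes higher and 0% lower) and 1 higher and 2 lower at an unadjusted p-value below 0.05 (2.57% and 6.11%). Apod is expressed by oligodendrocytes and fibroblasts, and markers of these cells are given beside it. The sum of 6 oligodendrocyte markers was 6618 to 7419 CPM in APPSWE vehicle brains and 5640 to 7289 CPM with Cmpd60. All 6 had a fold change below 0, where 53.8% of all genes were above 0. At an unadjusted p-value below 0.05, 3 of them were lower (2.41% of all genes), with 0 after adjustment. Choroid plexus markers summed to 375 to 1500 CPM with vehicle and 339.7 to 550.4 CPM with Cmpd60. Fibroblast markers summed to 85.2 to 161 CPM and 125 to 145.6 CPM. Of the 5 choroid plexus markers, 4 had a fold change below 0 in APPSWE, and of the 6 fibroblast markers, 5 were above 0 (53.8% of all genes). In the aged brain, where Apod was at 0.27, 4 of the 6 oligodendrocyte markers and 5 of the 6 fibroblast markers were below 0 (51.8% of all genes above 0). The part of these markers in the value of Apod was not tested.

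**Figure D4:**
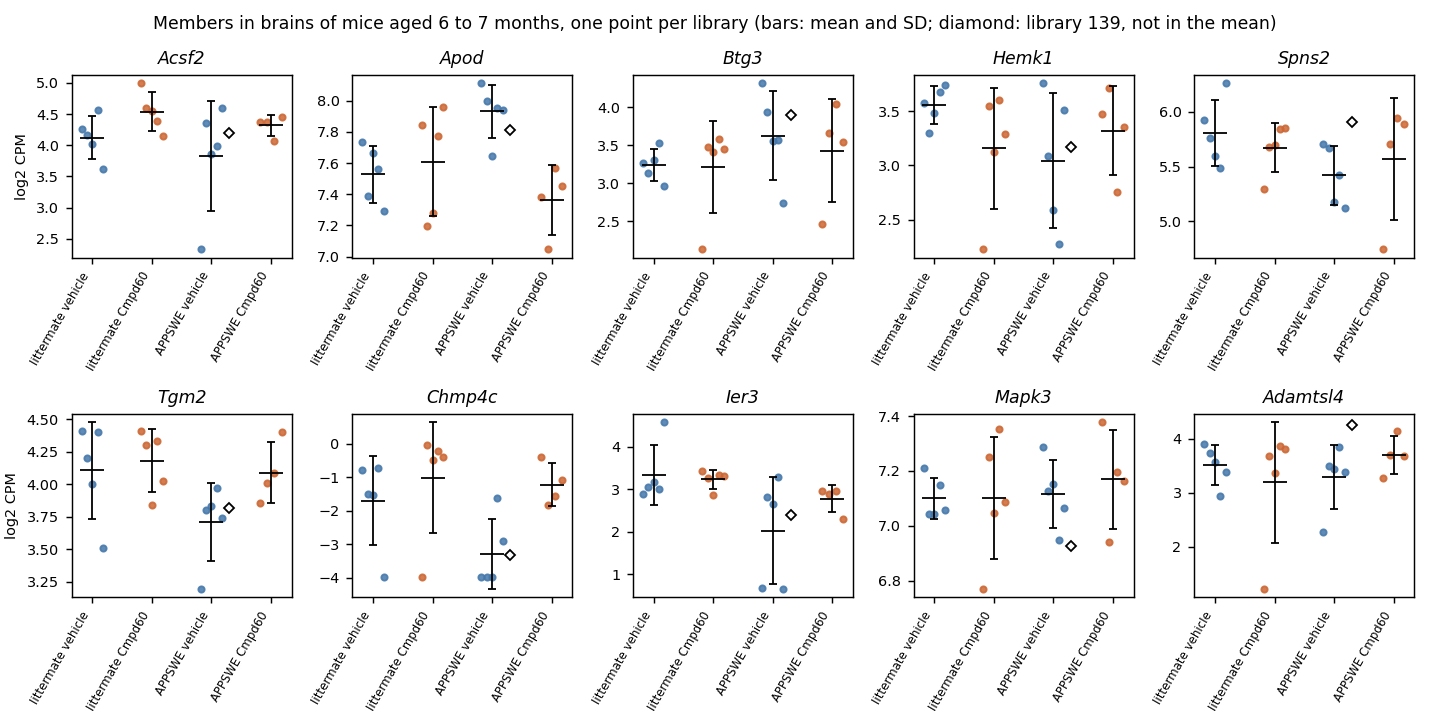
Log2 CPM (y axis) of each of the 10 genes in the younger brains, with 1 point per library, vehicle in blue, Cmpd60 in orange, mean and SD in black, and library s139 as an open diamond that enters no mean. The 4 APPSWE Cmpd60 values of Apod lie below all 5 APPSWE vehicle values, and the groups of the other 9 genes overlap in both genotypes.

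Acsf2, with the clearest change in aged kidney and brain, had 4.97, 20.5, 14.5, 15.9 and 24.1 CPM in APPSWE vehicle brains and 20.6, 20.8, 16.7 and 21.9 with Cmpd60. In littermates, it had 19, 17.8, 16.1, 23.6 and 12.2 CPM with vehicle and 32, 24.1, 23.3, 20.9 and 17.6 with Cmpd60. Library s140, which had few detected genes, held the lowest value, and library s152, likewise, the highest. The fold change over both genotypes was 0.37 on the log2 scale (95% interval -0.06 to 0.79, adjusted p = 0.645), close in size to the 0.35 of the aged brain but within the spread of the libraries. In APPSWE alone it was 0.32 (SE 0.30), 0.093 without s140 and 0.52 without s146.

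Tgm2 had 9.11, 13.9, 14.2, 15.6 and 13.3 CPM in APPSWE vehicle brains and 14.4, 16.1, 16.9 and 21.1 with Cmpd60, and 3 of the 4 Cmpd60 libraries were above every vehicle library. Its log2 fold change was 0.37 (SE 0.24, adjusted p = 0.725). In littermates, the libraries had 21.2, 18.4, 16, 21 and 11.3 CPM with vehicle and 21.1, 19.7, 14.2, 20.1 and 16.2 with Cmpd60, with a log2 fold change of 0.06 (SE 0.23, adjusted p = 0.999).

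Chmp4c was at the limit of detection. Its counts were 0, 0, 0, 7 and 2 in the APPSWE vehicle libraries and 18, 12, 7 and 11 with Cmpd60, and 14, 11, 8, 14 and 0 in littermate vehicle libraries and 0, 29, 18, 20 and 25 with Cmpd60. More counts were thus seen with Cmpd60 in most libraries of both genotypes, and 1 littermate library of each treatment had none. The levels with Cmpd60 were 0.703, 0.216, 0.272 and 0.404 CPM in APPSWE and 0, 0.906, 0.656, 0.798 and 0.701 in littermates, where 0 stands for at most 0.120 CPM. The fitted mean of both genotypes was 1.73 on the log2 scale with an SE of 1.03 (adjusted p = 0.671), a value that depends on how libraries at 0 are treated.

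Spns2 had 52.2, 50.9, 36.2, 42.7 and 34.8 CPM in APPSWE vehicle brains and 26.7, 52, 61.4 and 59.2 with Cmpd60, where library s141, with few detected genes, was the lowest of all. In littermates, it had 60.6, 54.1, 48.4, 44.9 and 76.9 CPM with vehicle and 39.1, 51.3, 52, 57.3 and 57.7 with Cmpd60. The log2 fold changes were 0.20 (SE 0.20, adjusted p = 0.893) and -0.15 (SE 0.19, adjusted p = 0.999), and 0.41 without s141, 0.086 without s147 and, in littermates, -0.015 without s155.

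Ier3 had 1.54, 6.99, 6.25, 9.74 and 1.52 CPM in APPSWE vehicle brains and 7.73, 7.28, 7.65 and 4.85 with Cmpd60, and 7.35, 8.15, 8.98, 7.95 and 23.8 CPM and 10.6, 9.47, 7.15, 9.94 and 9.85 in littermates. The lowest values (libraries s140 and s146) and the highest one (library s155) were all in libraries with fewer than 17000 detected genes. Its log2 fold changes were 0.40 (SE 0.49, adjusted p = 0.932) and -0.26 (SE 0.46, adjusted p = 0.999). Without s140 the APPSWE value was 0.17 and without s145 0.76, and without s155 the littermate value was 0.21.

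Of the remaining members, Mapk3 had the narrowest intervals, with log2 fold changes of 0.06 (95% interval -0.17 to 0.28) in APPSWE and 0.01 (-0.20 to 0.22) in littermates. It had 156, 139.6, 142.3, 123 and 134 CPM in APPSWE vehicle brains and 166, 123, 147 and 143 with Cmpd60, and 148, 132, 132, 141.9 and 133 CPM and 109, 152, 132, 163 and 136 in littermates. The values of both treatments thus covered much the same range.

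Adamtsl4 had 4.77, 11.2, 10.8, 14.4 and 10.4 CPM in APPSWE vehicle brains and 9.64, 13, 17.5 and 12.8 with Cmpd60, and 14.9, 13.3, 11.9, 7.60 and 10.4 CPM and 2.28, 12.8, 10.3, 14.6 and 13.9 in littermates. Its log2 fold changes were 0.36 (SE 0.39) and -0.11 (SE 0.37). Hemk1 had 13.5, 8.43, 5.97, 4.78 and 11.3 CPM in APPSWE vehicle brains and 11, 13, 6.68 and 10.1 with Cmpd60, and 11.9, 9.75, 11.1, 12.7 and 13.3 CPM and 4.62, 11.7, 8.64, 12.1 and 9.71 in littermates, with log2 fold changes of 0.21 (SE 0.36) and -0.33 (SE 0.34). Both genes overlapped between treatments in both genotypes. Btg3 had 19.9, 15.3, 11.8, 11.8 and 6.63 CPM in APPSWE vehicle brains and 5.47, 12.6, 16.5 and 11.6 with Cmpd60, and 9.60, 8.73, 9.80, 11.5 and 7.72 CPM and 4.32, 11.1, 10.6, 11.9 and 10.9 in littermates. It was below 0 in APPSWE, at -0.19 (SE 0.36), and at 0.04 (SE 0.34) in littermates. In each of Btg3, Hemk1, Mapk3 and Adamtsl4, library s152 held the lowest littermate value. Without s152, the littermate value of Hemk1 was -0.16. In APPSWE, Hemk1 was 0.059 without s145 and 0.42 without s140, and Adamtsl4 0.18 without s140.

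Libraries with few detected genes often held the extreme values. Detection also differed between the treatments. The median number of detected genes in APPSWE was 22604 with Cmpd60 and 18320 with vehicle, library s139 included. In littermates it was 23014 and 19669. The part of this difference in the members' directions and in the shares of all genes was not tested. Without the 5 libraries with fewer than 17000 detected genes, the median fold change of the members was 0.23 in APPSWE, 0.09 in littermates and 0.14 over both, with 0 of 10 called in each. The Apod difference in APPSWE was then -0.51 (adjusted p = 0.303). With library s139 as vehicle or as Cmpd60-treated, the median in APPSWE was 0.19 or 0.28, and the Apod value -0.54 or -0.47.

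Relatives of the members were taken from family and pathway lists. Of the relatives listed for the members, 96 were tested in aged kidney, 96 in aged brain and 93 in aged heart. After adjustment, 0, 0 and 3 of them were higher (0.188%, 0.0123% and 0.756% of all genes), with 1 lower in heart. The called relatives, all in heart, were Lcn2 (log2 fold change 2.31, SE 0.38, adjusted p = 0.0122), the transglutaminase F13a1 (0.66, SE 0.11, adjusted p = 0.0150), and 2 acyl-CoA synthetases, Acsl6 higher (0.46, SE 0.08, adjusted p = 0.0157) and Acsm5 lower (log2 fold change -0.46, SE 0.10, adjusted p = 0.0330) by edgeR. At an unadjusted p-value below 0.05, 10 relatives were higher and 6 lower in kidney, 9 higher and 10 lower in brain, and 17 higher and 7 lower in heart. The higher ones were 10.4%, 9.38% and 18.3% of those tested, beside 5.71%, 7.32% and 7.28% of all genes. In either direction, 2346 of 20698, 3368 of 24438 and 2626 of 19452 genes passed this level. The lists were chosen with earlier results known, so nothing is read from the difference.

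The 14 other genes of sphingosine 1-phosphate production, transport and receptors had a median of 0.11 in kidney, -0.01 in brain and 0.07 in heart. At an unadjusted p-value below 0.05 (edgeR), 2 of them were higher and 1 lower in kidney, 2 higher and 3 lower in brain, and 4 higher and 0 lower in heart. Of all genes, 5.71%, 7.32% and 7.28% were higher at this level. The 12 other ESCRT-III genes had medians of 0.05, -0.05 and 0.00, and the 12 other genes of the RAF-MEK-ERK cascade 0.01, 0.04 and 0.04. The 10 other immediate early genes had a median of 0.35 in kidney, where 9 of 10 were above 0, 0.06 in brain and 0.12 in heart. In the APPSWE brains, the same 10 genes had a median of -0.30, with 9 of 10 below 0, where 53.8% of all genes were above 0. Of these, 2 were lower at an unadjusted p-value below 0.05 (2.41% of all genes). Ier3 was at 0.40 (SE 0.49) there, and at -0.22 without the 5 libraries with few detected genes. The relatives were not refitted without those libraries. The acyl-CoA synthetases (13, 12 and 13 tested) had medians of -0.04, -0.05 and -0.08, and the BTG/TOB genes (6 tested) 0.03, -0.07 and 0.06. The lipocalins and small lipid carriers (7, 6 and 6 tested) had -0.13, 0.10 and 0.04, the ADAMTS-like and microfibril genes (10 tested) -0.10, 0.13 and 0.03, and the genes of release factors and their methylation (7 tested) 0.01, -0.06 and -0.11. The transglutaminases had the highest medians, 0.58 over 5 genes tested in kidney, 0.32 over 7 in brain and 0.65 over 3 in heart, most of them at low counts. In the younger brains, 0 of 95 relatives were called in either genotype.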

How the data were processed

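Whole-gene counts per library were deposited by the authors. Per the labels, polyadenylated RNA was made into stranded libraries (NEBNext Ultra II Directional), reads were trimmed with Trimmomatic 0.32 after FastQC, aligned with HISAT2 2.1.0 and counted with HTSeq 0.11.0; the genome build is not given in the sources used here. The 5 summary lines of each file (15.4% to 22.1% of reads) were left out.

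Groups came from titles and source names. A gene was tested where 3 or more of the fitted libraries each held over 2 of its counts, with edgeR 4.0.16 (quasi-likelihood, TMM), separately for each aged tissue, jointly for the 4 younger groups (19 libraries) and jointly for the 34 aged libraries between tissues, with Benjamini-Hochberg adjustment over all genes tested. Limma-voom, the kind of test the study used, was run here with limma 3.58.1 and, like DESeq2 1.42.0 (R 4.3.3), was an alternative, beside other size factors and count filters, each library left out, both placements of library s139, all aged tissues in 1 fit and detected genes as a covariate. Removal of the 5 libraries with fewest genes was chosen after seeing the data. Levels are CPM, and RPKM used GENCODE vM1 exon lengths. Symbols were found for 32651 of 54232 gene IDs, and 3 of 187 listed genes had no ID. Motif and promoter sequences are from RefSeq. The fits were run on simulated counts with known changes. The simulated spread between libraries was below that of the younger brains, so this does not show what the tests there could detect.

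The 10 genes and all gene lists were chosen with earlier results of these data known. Besides the 10 genes, the text names relatives with an adjusted p-value below 0.05, at most 3 per list, and the 5 other genes raised in all 3 tissues at 1 CPM or more whose smallest fold change was largest; Atf4 and Tcirg1 mark the threshold. The labels call the libraries separate samples, and the p-values measure the spread between them. Pairs of libraries within a group (121) differed by at least 4.51 times the sampling noise in chi-square per gene, and 0 were identical. Detection limits cover counting error only.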

Additional observations from a re-analysis of the deposited data

Results flagged for a closer look

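Over 100 combinations of a member and a group of 4 to 6 libraries, 9 held a gap in which 1 library lay far from the rest for a member, where chance gives about 1 in 20 such gaps per group. In aged kidney, Cmpd60 library 55 had 20.2 CPM of Btg3 (12.8 to 15.1 in the others) and 13.6 CPM of Adamtsl4 (5.92 to 8.47). In aged brain, vehicle library 29 had 11.7 CPM of Hemk1 (9.36 to 10.1), and in aged heart, Cmpd60 library 69 had 53.1 CPM of Ier3 (33.6 to 38.7).

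In the younger brains, littermate Cmpd60 library s152 had 4.32 CPM of Btg3 (10.6 to 11.9) and 0 CPM of Chmp4c (0.656 to 0.906). Littermate vehicle library s155 had 23.8 CPM of Ier3 (7.35 to 8.98). In the APPSWE mice, Cmpd60 library s148 had 4.85 CPM of Ier3 (7.28 to 7.73), and vehicle library s145 had 0.259 CPM of Chmp4c (0 to 0.0705). Libraries s152 and s155 are among the 5 with fewer than 17000 detected genes.

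The response of Apod to Cmpd60 differed between the genotypes by -0.67 on the log2 scale (unadjusted p = 0.00176), with all 4 APPSWE Cmpd60 libraries below the APPSWE vehicle libraries, and this did not pass adjustment over all genes (adjusted p = 0.944, edgeR).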

How the results depend on the processing

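In the aged tissues, where the sign follows from the choice of the genes, leaving out 1 library gave medians of 0.40 to 0.57 in kidney, 0.24 to 0.32 in brain and 0.26 to 0.35 in heart. With unadjusted p-values in all tissues, 41 other genes were raised in place of 10. Counts of all genes called moved by more than 1.5 times: edgeR called 62, 5 and 229 in kidney, brain and heart, and DESeq2 429, 429 and 746. Without a filter, kidney gave 94 and brain 102, limma-voom gave 2 in brain, and a fit of all 34 aged libraries gave 552 in kidney and 0 in brain. Leaving out 1 library gave 20 to 131 in kidney, 1 to 372 in brain (1 without Cmpd60 brain 33, 372 without vehicle brain 29) and 36 to 247 in heart. In the younger brains, the alternatives gave 860 member fold changes, counted per gene, comparison and alternative. Of these, 0 were called and 48 changed sign, and the cause was not tested. Limma-voom gave Mapk3 -0.011 in APPSWE, -0.0050 in littermates and -0.0081 over both, and Btg3 -0.048 in littermates. With library s139 as vehicle, Spns2 over both genotypes was -0.018. With detected genes as a covariate, Adamtsl4 was -0.060 in APPSWE and -0.33 over both, Btg3 -0.22 and Mapk3 -0.0013 in littermates, and Spns2 -0.085 over both. Without the 5 libraries with few genes, Btg3 was 0.058 and Ier3 -0.22 in APPSWE; Apod -0.0093, Spns2 0.066, Tgm2 -0.13, Ier3 0.16 and Adamtsl4 0.11 in littermates; and Btg3 0.11, Hemk1 0.26 and Ier3 -0.026 over both. Leaving out 1 library at a time, Btg3 ran from -0.41 to 0.047 and Mapk3 from -0.017 to 0.13 in APPSWE. In littermates, Btg3 ran from -0.039 to 0.23, Tgm2 from -0.067 to 0.13, Ier3 from -0.38 to 0.21, Mapk3 from -0.054 to 0.087 and Adamtsl4 from -0.24 to 0.15. Over both, Btg3 ran from -0.18 to 0.045, Hemk1 from -0.14 to 0.045, Spns2 from -0.030 to 0.13, Ier3 from -0.045 to 0.31 and Mapk3 from -0.0026 to 0.071. Between kidney and heart, Btg3 ran from -0.15 to 0.0023, and 7 to 9 members were called. Apod in APPSWE stayed between -0.65 and -0.47 (adjusted p from 0.0798 to 0.674). No paired analysis was possible because the groups share no replicate numbers.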

Other observations

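Library s139, labelled APPSWE vehicle but headed as Cmpd60-treated in a table of the study, held 18.3 CPM of Acsf2, 224 CPM of Apod, 14.8 CPM of Btg3, 8.91 CPM of Hemk1 and 60.0 CPM of Spns2. It had 14.0 CPM of Tgm2, 0.0370 CPM of Chmp4c, 5.18 CPM of Ier3, 121 CPM of Mapk3 and 18.9 CPM of Adamtsl4. Its Apod, Tgm2 and Chmp4c values lay in the range of the other APPSWE vehicle libraries and outside that of the Cmpd60 libraries, its Spns2 value in the range of the Cmpd60 libraries and above every vehicle library, its Adamtsl4 value above both groups and its Mapk3 value below both. The other 4 values lay in both ranges.

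Between the vehicle groups, Ier3 was lower in APPSWE than in littermate brains by a log2 difference of -1.11 (SE 0.47, unadjusted p = 0.0246, adjusted p = 0.513, edgeR), and Spns2 by -0.39 (SE 0.19, unadjusted p = 0.0453, adjusted p = 0.562). Neither passed adjustment. The Ier3 difference ranged from -1.55 to -0.09 over the alternatives, and its extreme values were in libraries with few detected genes. Immune cell markers summed to 8.22 to 16.0 CPM in APPSWE vehicle brains and 16.6 to 25.8 CPM in APPSWE Cmpd60 brains. All 6 were above 0 (53.8% of all genes), with 0 called after adjustment. A complete gap upwards was found for 1.49% of all single genes. In littermates, the sums were 14.56 to 18.15 CPM with vehicle and 12.69 to 17.59 CPM with Cmpd60, with 2 of 6 above 0 (52.8% of all genes). Vehicle libraries s140 and s146 and Cmpd60 library s141 had few detected genes. The part of detection in these sums was not tested.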
